A study of Mus musculus with 6 samples.

Results

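What glucose and palmitate added to low oxygen was read from 1 pair of miRNA arrays of mProx24 cells, a line of mouse proximal tubular epithelial cells. The array titled triple stimuli was set against the array titled hypoxia, and every mouse miRNA on the array was compared. The pair makes up 2 of the 6 arrays of the study, and the 1247 miRNAs on each array were read with 3105 probes. Both cultures were kept at 1% oxygen for 12 h. The triple stimuli culture was also given high glucose and 150 µM palmitate with 0.15% albumin for 9 h; the labels used here give no glucose dose and name albumin only with palmitate, and the effects of these 2 cannot be told apart. The other 4 arrays came from an untreated control, a high glucose culture and a palmitate culture (150 µM with 0.15% albumin, 9 h), all at 20% oxygen, and from a triple stimuli culture treated with rapamycin at 0.4 µg/ml for 12 h beforehand. Each condition was hybridised once with label made from 100 ng of RNA, so no difference below has a replicate check or a p-value. RNA of a whole culture was read, so a change in the cells that express a miRNA and a change in RNA per cell cannot be told apart.

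MicroRNAs are short RNAs, cut from a hairpin precursor, that guide Argonaute proteins to messenger RNAs and lower their translation or stability. The bases near the 5′ end, called the seed, carry most of the pairing that selects a target. Proximal tubular cells reclaim filtered glucose, take up fatty acids bound to albumin and depend on oxygen for that work, and excess glucose, fatty acids and low oxygen come together in the diabetic kidney.

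Many of the miRNAs that were higher with the added stimuli were rich in G, which can be seen in their letters. The lowest share of G among the 8 shown next was that of miR-3082-5p, 40.9%. The mature sequences of the 8 with a RefSeq entry, from the assembly GRCm38.p6, are shown with the seed (bases 2 to 8) in capitals and in order of their difference:
miR-5126: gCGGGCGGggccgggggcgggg
miR-6538: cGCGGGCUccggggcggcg
miR-2861: gGGGCCUGgcggcgggcgg
miR-211-3p: gCAAGGACagcaaaggggggc
miR-3102-5p: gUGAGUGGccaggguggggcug
miR-2137: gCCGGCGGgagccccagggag
miR-1895: cCCCCGAGgaggacgaggagga
miR-3082-5p: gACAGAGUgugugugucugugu

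The 8 carried 8 distinct seeds, and 0 of these seeds occurred in another of the 140 matched miRNAs that were compared. For comparison, miR-210-3p has 40.9% G and is the classic target of hypoxia-inducible factor among miRNAs. miR-21a-5p has 22.7% G and is raised in many forms of kidney injury and fibrosis. They read as follows, again with the seed in capitals:
miR-210-3p: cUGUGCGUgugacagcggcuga
miR-21a-5p: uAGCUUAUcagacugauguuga

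The array probes paired with the 3′ end of each matched miRNA. Those of the other 7 higher miRNAs, which had no RefSeq entry in the table used, are given as the array's own DNA letters in place of a mature sequence:
miR-3096a-5p: agttctcatccttggcc
miR-3960: cccccgcctcc
miR-6378: gcgtgtgtcctccc
miR-3096b-5p: ttagagttctcatccttgg
miR-1897-5p: ccccctctttctcc
miR-5107-5p: tgtccctgcctcct
miR-714: gcgaccgaccggcc

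The probes of miR-3096a-5p and miR-3096b-5p had 15 bases in common, so they may read the same RNA and are not independent of each other. The next longest run shared by 2 of the 15 probes was 7 bases. In GRCm38.p6 the RefSeq loci lay inside the extents of annotated genes for 7 of the 8: miR-5126 at chr1:84695890-84695911 (plus strand) in Dner, miR-6538 at chr12:26414970-26414988 (minus strand) in Rnf144a, miR-211-3p at chr7:64205868-64205888 (plus strand) in Trpm1, and miR-3102-5p at chr7:100882388-100882409 (minus strand) in Arhgef17. Further, miR-2137 lay at chrX:72992113-72992133 (plus strand) in Zfp185, miR-1895 at chr3:134240515-134240536 (minus strand) in Cxxc4, and miR-3082-5p at chr17:25831406-25831427 (minus strand) within both Jmjd8 and Stub1. miR-2861 lay at chr2:32712819-32712837 (minus strand) in no annotated gene. The gene table used gives gene extents only, so exons and introns were not told apart.

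The hypoxia array had 172 detected miRNAs and the triple stimuli array 185, where detected means that at least 0.5 of the spots of a probe were well above background. Of the miRNA spots, 12.0% and 12.7% were well above background, the spots of 1 detected probe spread by a median of 9.03% and 8.85%, and the geometric mean of the spike-in controls was 2415 and 2389. No spot was saturated, and all arrays lay on the same slide. Kidney miRNAs of the miR-10 and miR-30 families were detected on both arrays, 7 of 12 kidney epithelium markers in all, whereas miR-146b-5p, miR-204-5p, miR-215-5p and the cluster partners miR-192-5p and miR-194-5p were not. Of the epithelial miR-200 family 0 of 5 were detected, and of markers of blood cells 0 of 4 and of fibroblasts and smooth muscle 0 of 5. Of the markers of muscle, neurons and hepatocytes 1 of 6 was detected, miR-206-3p, with a summed signal of 104 for the list in hypoxia and 109 in triple stimuli. Markers of endothelial cells were not analysed here.

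With glucose and palmitate added at 1% oxygen, 15 miRNAs were higher and 0 were lower. A miRNA was called where it was detected on both arrays, differed by at least 1.5-fold (0.58 on the log2 scale) and by more than 2 standard errors of the spots. The condition on the spots removed no miRNA, as 15 passed the fold limit before it was applied. The calls were 8.77% of the 171 miRNAs detected on both arrays in the upward direction and 0% in the downward direction. The miRNAs called were miR-5126, miR-6538, miR-2861, miR-3096a-5p, miR-3960, miR-6378, miR-211-3p, miR-3096b-5p, miR-1897-5p, miR-5107-5p, miR-714, miR-3102-5p, miR-2137, miR-1895 and miR-3082-5p, from the largest difference to the smallest. Over all 171, the median difference was 0.10 on the log2 scale, the quartiles were -0.02 and 0.30, and the range ran from -0.29 to 1.05. A total of 122 miRNAs differed by less than 0.25 in either direction. The median depends on how the arrays are scaled, from -0.11 in the deposited table to 0.17 with spike-in scaling, so a difference is best read against it.

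**Figure D1:**
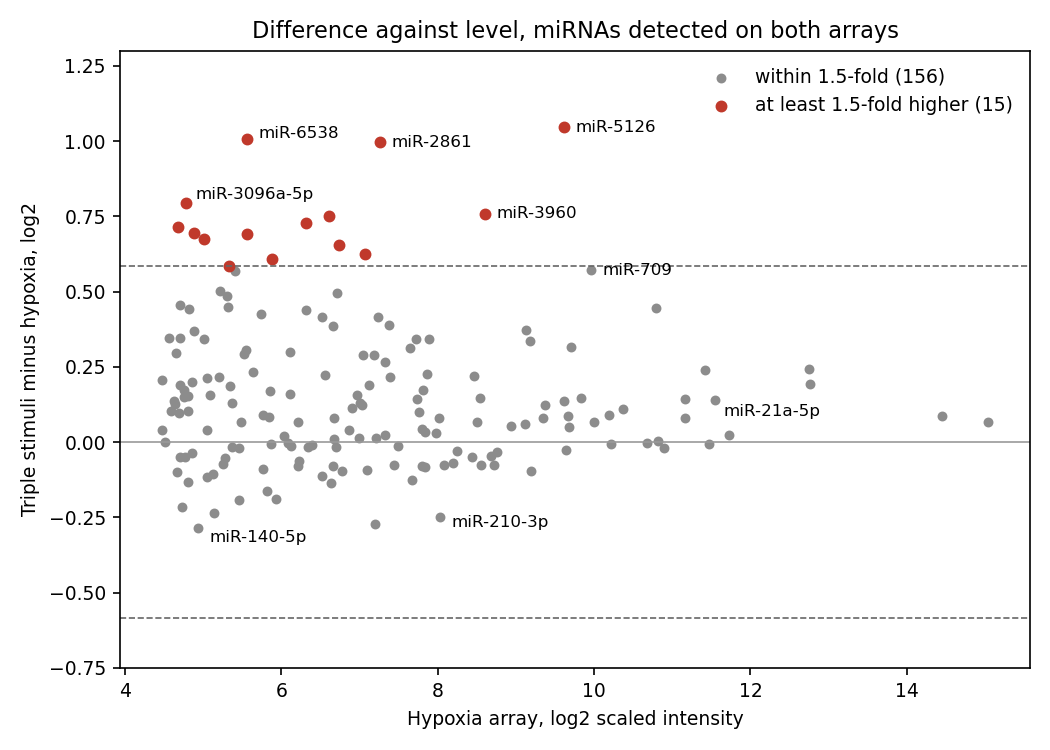
Each point is 1 of the 171 miRNAs detected on both arrays, with its log2 scaled intensity on the hypoxia array on the x axis and the log2 difference, triple stimuli minus hypoxia, on the y axis; dashed lines mark 1.5-fold. The 15 miRNAs past the upper line lie between 4.68 and 9.61 on the x axis, no point passes the lower line, and miR-5126 stands highest at 1.05.

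miR-5126 differed most. Its scaled intensity was 616 in the control, 3566 on the array labelled high glucose and 641 in palmitate at 20% oxygen, and 782 in hypoxia, 1615 in triple stimuli and 2501 with rapamycin at 1% oxygen. The 20 spots on the triple stimuli array ran from 1530 to 1708 and the 18 spots on the hypoxia array from 748 to 824, so the spots did not overlap. The difference was 1.05 on the log2 scale (spot SE 0.01), a fold of 2.07. Its other probe, longer by 1 base, gave 0.98. Its mature form is made of G and C alone.

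miR-2861 and miR-3960, neighbours that have been described together in the differentiation of bone-forming cells, were both higher. miR-2861 had a scaled intensity of 123 in the control, 633 on the array labelled high glucose and 130 in palmitate at 20% oxygen, and 153 in hypoxia, 306 in triple stimuli and 468 with rapamycin at 1% oxygen. miR-3960 had 407, 841, 460, 388, 656 and 776 in the same order. In both, the array labelled high glucose was the highest of the 6 and triple stimuli stood between it and hypoxia. The log2 difference at 1% oxygen was 1.00 (spot SE 0.02) for miR-2861 and 0.76 (spot SE 0.02) for miR-3960, and the spots of the pair of arrays did not overlap for either. Their second probes gave 0.74 and 0.75.

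miR-6538 was at 48.6 in the control, 133 on the array labelled high glucose and 49.3 in palmitate at 20% oxygen, and 47.3 in hypoxia, 95.0 in triple stimuli and 126 with rapamycin at 1% oxygen. The control, palmitate and hypoxia arrays were thus close together and the other 3 arrays higher. The difference at 1% oxygen was 1.01 on the log2 scale (spot SE 0.04), with 0.94 from the second probe.

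miR-211-3p is an arm of the hairpin inside Trpm1, a gene of pigment cells and retina. Its scaled intensity was 79.3 in the control, 197 on the array labelled high glucose and 90.3 in palmitate at 20% oxygen, and 79.6 in hypoxia, 132 in triple stimuli and 155 with rapamycin at 1% oxygen, and the difference at 1% oxygen was 0.73 (spot SE 0.03). miR-3102-5p comes from a mirtron, a short intron that is itself the precursor. It stood at 77.9 in the control, 338 on the array labelled high glucose and 81.8 in palmitate at 20% oxygen, and 106 in hypoxia, 167 in triple stimuli and 230 with rapamycin at 1% oxygen, a difference of 0.65 (spot SE 0.03) at 1% oxygen. In these miRNAs too, the array labelled high glucose was the highest of the 6.

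miR-6378 and miR-2137 followed the same order of arrays at the top. miR-6378 went from 97.3 in hypoxia to 164 in triple stimuli (log2 0.75, spot SE 0.04), against 105 in the control, 282 on the array labelled high glucose, 106 in palmitate and 180 with rapamycin. miR-2137 went from 134 to 207 (0.62, spot SE 0.02), against 155 in the control, 294 on the array labelled high glucose, 176 in palmitate and 252 with rapamycin. Spots of the pair of arrays did not overlap for either miRNA.

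Several further miRNAs had dim probes. The scaled intensity of miR-3096a-5p was 27.5 in hypoxia and 47.7 in triple stimuli (0.79, spot SE 0.08), that of miR-3096b-5p 25.6 and 42.0 (0.71, spot SE 0.09), and that of miR-1897-5p 29.4 and 47.7 (0.70, spot SE 0.08). miR-1895 had 59.0 and 89.9 (0.61, spot SE 0.06), and miR-3082-5p 40.2 and 60.3 (0.59, spot SE 0.08). Also dim on the hypoxia array were miR-6538 and miR-5107-5p, at 47.3 and 47.2, and miR-714, at 32.3. The lowest detected signal was 22.2 on the hypoxia array and 21.2 on the triple stimuli array. For miR-3096b-5p, miR-1897-5p, miR-1895 and miR-3082-5p the spots of the pair of arrays overlapped, and for miR-3096a-5p the lowest triple stimuli spot, 38.8, lay just above the highest hypoxia spot, 37.4. At 20% oxygen these miRNAs were above the control on both the array labelled high glucose and that labelled palmitate. The log2 differences were 0.54 and 0.53 for miR-3096a-5p, 0.30 and 0.29 for miR-3096b-5p, and 0.78 and 0.53 for miR-1897-5p. They were 0.61 and 0.29 for miR-1895, and 0.29 and 0.41 for miR-3082-5p.

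**Figure D2:**
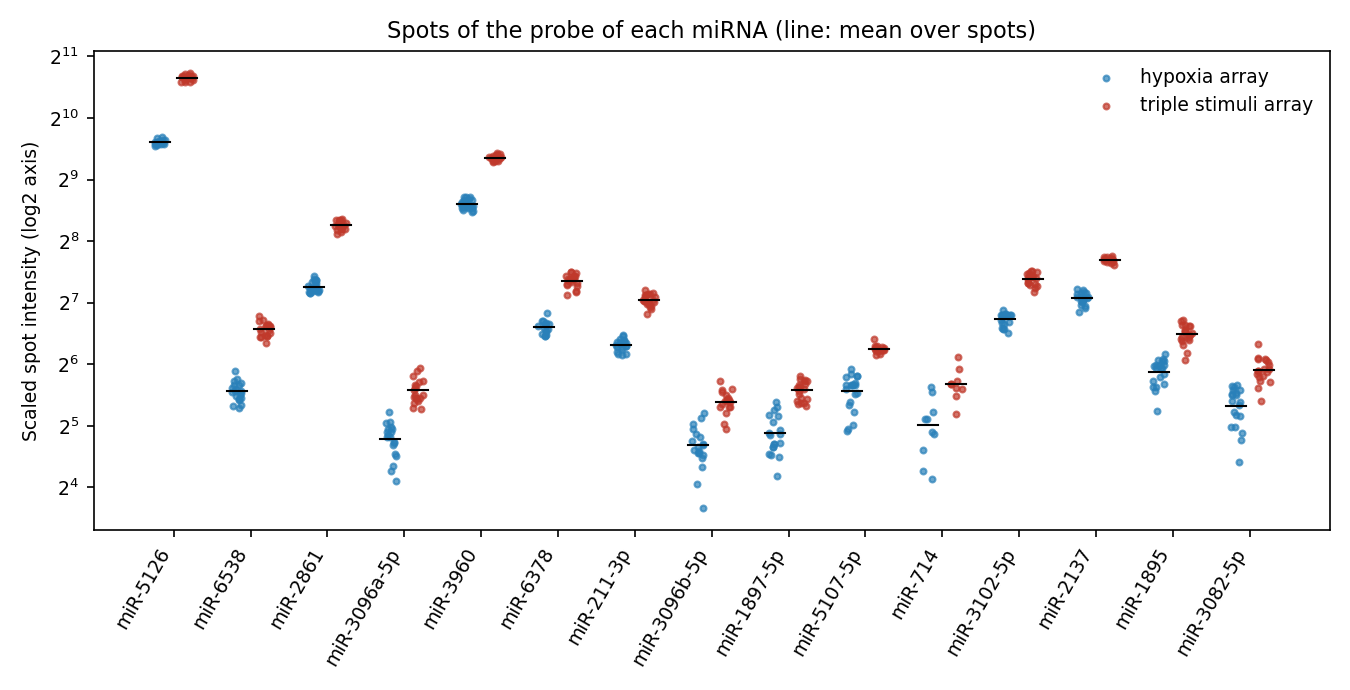
Points are the scaled intensities of single spots, on a log2 axis, of the probe that stands for each of the 15 higher miRNAs, with the hypoxia array in blue and the triple stimuli array in red; black lines are means over spots. The groups of spots are apart for 10 of the 15, such as miR-5126 and miR-3960, and overlap for 5, such as miR-714.

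miR-5107-5p and miR-714 had another order of arrays. miR-714 is one of the miRNAs annotated in the precursor of ribosomal RNA. The scaled intensity of miR-5107-5p was 76.1 in the control, 75.8 on the array labelled high glucose and 69.6 in palmitate at 20% oxygen, and 47.2 in hypoxia, 76.2 in triple stimuli and 67.9 with rapamycin at 1% oxygen. That of miR-714 was 56.3, 49.1, 51.6, 32.3, 51.5 and 34.4 in the same order. For both the hypoxia array was the lowest of the 6, and triple stimuli stood near the control rather than above it. The difference at 1% oxygen was 0.69 (spot SE 0.06) for miR-5107-5p and 0.67 (spot SE 0.17) for miR-714. Hypoxia against control, which uses the same hypoxia array, gave -0.69 and -0.80. These were 2 of the 3 miRNAs lower in that comparison, 1.85% of the 162 detected on both of its arrays. The third, miR-709, went from 993 in hypoxia to 1475 in triple stimuli, a difference of 0.57 (spot SE 0.01) that lay just below the limit.

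Over all 171 miRNAs, the lowest triple stimuli spot lay above the highest hypoxia spot for 27, or 15.8%, and the opposite held for 0, or 0%. Spots were compared under the main scaling only, where the median difference was 0.10, and that median fell below 0 under some other scalings. Of the 15 called miRNAs 10 were among those 27. Calls and spots come from the same probes and arrays, so this count is a description. Taking single probes, 28 of the 308 detected on both arrays were at least 1.5-fold higher, or 9.09%, and 0 were lower. The 15 miRNAs had 25 such probes, of which 23 passed the limit, and all 25 differed upward, from 0.40 for the second probe of miR-2137 to 1.05 for miR-5126. Of the 10 miRNAs with at least 2 such probes, 8 had all of them past the limit. The calls of miR-6378, miR-3096b-5p, miR-5107-5p, miR-714 and miR-3082-5p each rested on 1 probe, as their other probes were not detected on both arrays. The other probe of miR-6378 was at 2.50 in hypoxia and 0.12 in triple stimuli, against 97.3 and 164 for its main probe. That of miR-3096b-5p was at 12.3 and 13.3. The undetected probes of the remaining miRNAs were higher in triple stimuli, such as 15.6 and 23.0 for miR-5107-5p. Probes of 1 miRNA read the same RNA and are not replicates of the condition.

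Just inside the limit were miR-714, miR-3102-5p, miR-2137, miR-1895 and miR-3082-5p, between 0.67 and 0.59. Just outside were miR-709 and miR-125a-3p at 0.57, miR-135a-1-3p at 0.50, miR-5128 at 0.49 and miR-671-5p at 0.48. Among these, miR-125a-3p is an arm of a hairpin whose other arm, miR-125a-5p, differed by -0.03.

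Detection itself also differed between the arrays. A further 14 miRNAs were detected in triple stimuli and not in hypoxia, and 1, miR-425-5p, in hypoxia alone. For 2 of the 14 the bound reached 1.5-fold. miR-149-3p, from a hairpin inside Gpc1 at chr1:92850421-92850442 (GRCm38.p6, plus strand), is shown because its letters are as rich in G as those above, with its partner arm for comparison and the seeds in capitals:
miR-149-3p: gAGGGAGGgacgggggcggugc
miR-149-5p: uCUGGCUCcgugucuucacuccc

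The scaled intensity of miR-149-3p was 47.3 in triple stimuli and 20.4, not well above background, in hypoxia, which makes it at least 2.14-fold higher (log2 1.09). It was also detected on the array labelled high glucose, at 79.7, and with rapamycin, at 63.7, and not in the control (20.1) or palmitate (16.9). The partner arm miR-149-5p, read in the same RNA, went the other way in sign and did not pass the limit, from 60.8 to 53.3 (log2 -0.19, spot SE 0.06). miR-680, annotated at 3 loci, was 33.6 in triple stimuli and 19.0 in hypoxia, not well above background there, at least 1.52-fold higher. It too was detected on the array labelled high glucose, at 72.0, and with rapamycin, at 46.5.

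The 10 miRNAs with the brightest probes on the hypoxia array hardly differed, from -0.01 for let-7a-5p to 0.24 for miR-5109. miR-21a-5p was among them, at 2998 in hypoxia and 3306 in triple stimuli, a difference of 0.14 (spot SE 0.02) with overlapping spots. Over the alternative settings it ran from -0.07 to 0.27, within the limit. miR-6366 and miR-3963, the brightest probes of all, differed by 0.07 and 0.09.

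At the low end no miRNA passed the limit. miR-210-3p was at 24.7 in the control, where it was not well above background, and at 260 in hypoxia, 219 in triple stimuli and 206 with rapamycin. With glucose and palmitate the hypoxic signal was thus present and differed by -0.25 on the log2 scale (spot SE 0.04), with overlapping spots and the second probe at -0.41. miR-140-5p, known from cartilage, differed by -0.29 (30.4 in hypoxia and 24.96 in triple stimuli, spot SE 0.10). miR-196b-5p, which lies in a Hox cluster, differed by -0.27 (147 and 122, spot SE 0.03), miR-181b-5p by -0.24 and miR-484 by -0.21 (26.4 and 22.8, spot SE 0.09). Of these, miR-210-3p, miR-140-5p and miR-196b-5p had differences below 0 under all 19 alternative settings. Those of miR-181b-5p and miR-484 also stayed below 0, from -0.48 to -0.10 and from -0.43 to -0.07.

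The addition of the stimuli could be set beside the single stimuli at 20% oxygen, which share no array with this pair. In the deposited table the columns of high glucose and palmitate matched each other's scanner file rather than their own, so which of those arrays had which stimulus could not be settled, and the labels of the scanner files are used below. In the array labelled high glucose against the control, 11 of 162 miRNAs were higher, or 6.79%, and 0, or 0%, were lower. Of those 11, 10 were among the 15 higher at 1% oxygen, which is 66.7% of the 15 and 90.9% of the 11. The exception was miR-1934-3p, which differed by 0.45 at 1% oxygen. In palmitate against the control, 0 of 155 were higher, or 0%, and 4 were lower, or 2.58%, and the 15 miRNAs reached at most 0.53 there.

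No culture had both stimuli at 20% oxygen, so the sum of the 2 single differences against the control was taken, which is the same if the labels of those 2 arrays are exchanged. Both of its terms use the control array. It was at least 1.5-fold higher for 13 of the 15 miRNAs, against 1 of the other 139 detected on all 6 arrays and 9.09% of the 154 together. The median of the 15 was 1.22 for the sum and 0.71 for the difference at 1% oxygen, and the sum was the larger for 12 of the 15. The widest gaps were those of miR-5126, with a sum of 2.59 against 1.05, miR-3102-5p, with 2.19 against 0.65, and miR-2861, with 2.43 against 1.00. Across the 154 miRNAs Pearson's r between the sum and the difference at 1% oxygen was 0.72 and Spearman's rho 0.49; without the 15, r was 0.40 over 139. Points within each comparison share their arrays and, across comparisons, their probes, so these are descriptions. The 2 miRNAs whose sum was below 0 were miR-5107-5p, at -0.13, and miR-714, at -0.32.

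**Figure D3:**
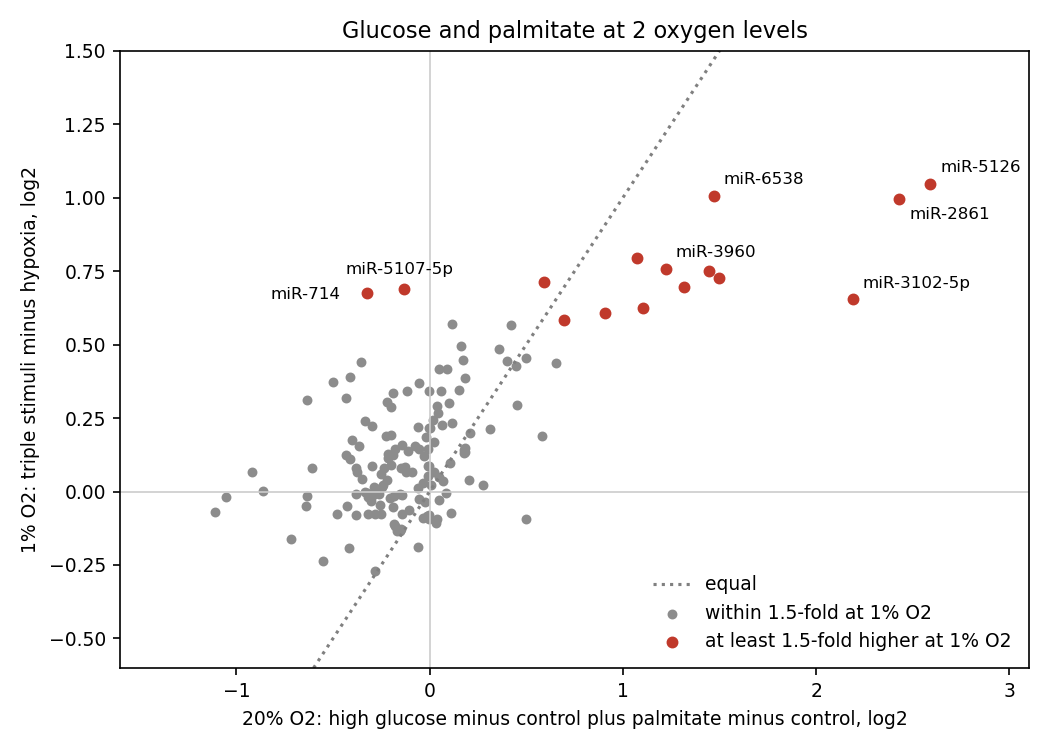
Each point is 1 of the 154 miRNAs detected on all 6 arrays, with the summed log2 differences of high glucose and of palmitate against the control at 20% oxygen on the x axis and triple stimuli minus hypoxia at 1% oxygen on the y axis; the dotted line marks equal values. Of the 15 red points 12 lie to the right of that line, and miR-5107-5p and miR-714 lie left of 0.

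Comparisons that reuse one of the arrays give their own values for the 15. In triple stimuli against the control 9 of the 15 were higher, where 9 of 161 miRNAs, or 5.59%, were called; that comparison uses the same triple stimuli array. In triple stimuli with rapamycin against hypoxia 13 of the 15 were higher, where 16 of 172, or 9.30%, were called; that comparison uses the same hypoxia array. The hypoxia array was the lowest of the 6 for 11 of the 15, against 28.1% of all 171, and the triple stimuli array was the highest for 1 of the 15, against 26.3%. The calls themselves favour a low hypoxia value, so the first of these counts is a description.

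**Figure D4:**
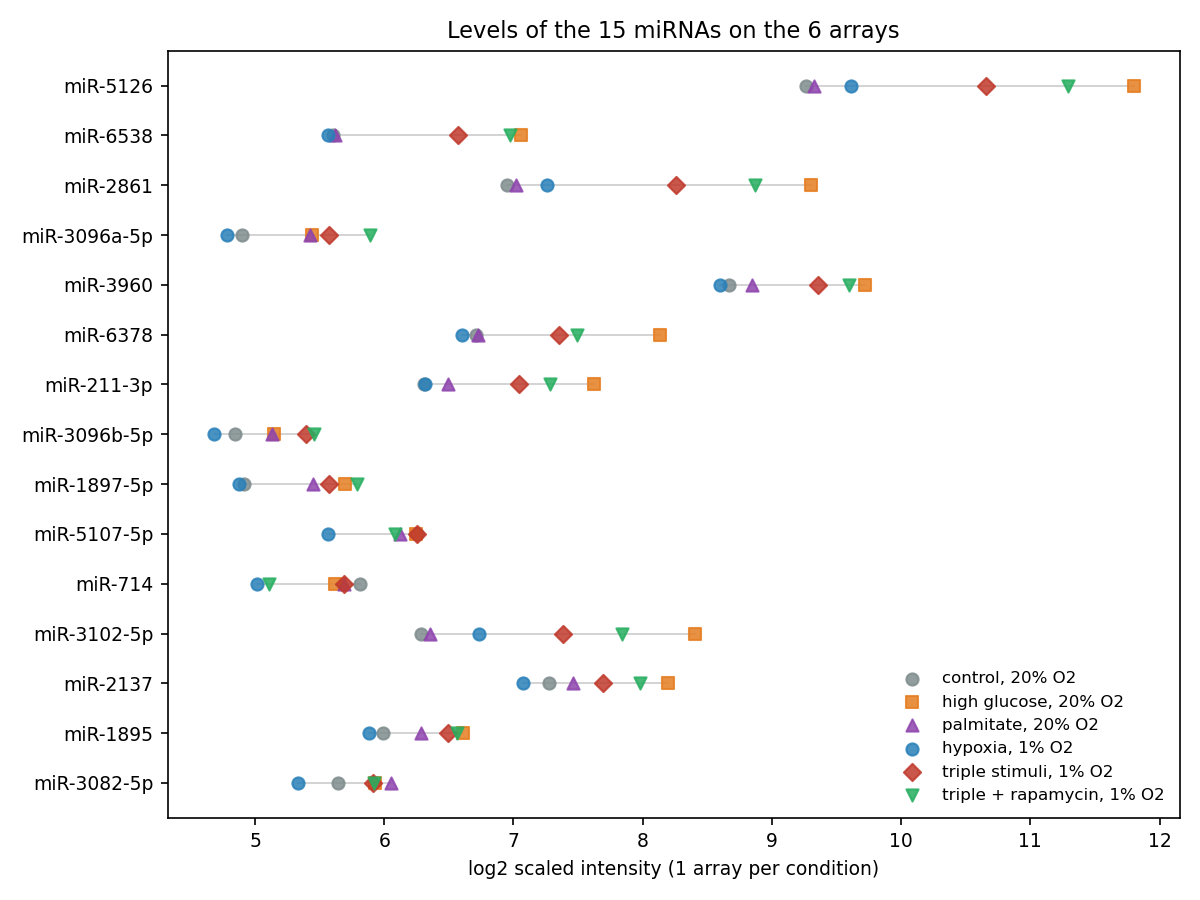
Each row is 1 of the 15 miRNAs higher in triple stimuli than in hypoxia, and each symbol is its log2 scaled intensity on 1 of the 6 arrays, with 1 array per condition. For miR-5126, miR-2861 and miR-3102-5p the array labelled high glucose is farthest right and the control farthest left, whereas for miR-5107-5p and miR-714 hypoxia is farthest left.

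The base composition of the probe moved with the difference. The median G+C share was 71.4% for probes of the 15 and 52.9% for those of the other 156, and the median probe length was 14 bases against 17. Across the 171 miRNAs Pearson's r between the difference and the G+C share was 0.52 (Spearman's rho 0.37), r with the probe length was -0.53, and G+C share and length were themselves related (r = -0.87). Of the 62 miRNAs with a G+C share below 50%, 1 was higher and the median difference was 0.05. Of the 48 from 50% to below 60%, 2 were higher (median 0.09), and of the 40 from 60% to below 70%, 4 (median 0.16). Of the 13 from 70% to below 80%, 3 were higher (median 0.45), and of the 8 at 80% or above, 5 (median 0.72). The 3 miRNAs with the largest differences, miR-5126, miR-6538 and miR-2861, had probes made of G and C alone. Whether composition takes part in the difference was not tested.

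**Figure D5:**
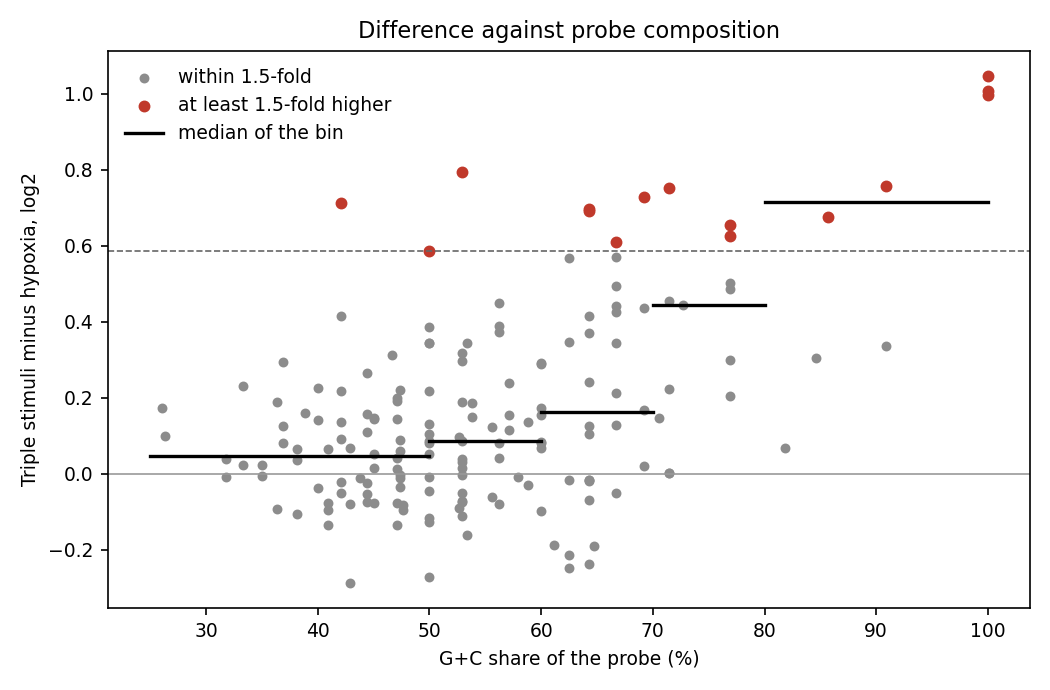
Each point is 1 of the 171 miRNAs, with the G+C share of its probe in percent on the x axis and the log2 difference, triple stimuli minus hypoxia, on the y axis; black bars are medians of the bins and the dashed line marks 1.5-fold. Medians go from 0.05 below 50% G+C to 0.72 at 80% or above, while miR-3096a-5p and miR-3096b-5p are high at 52.9% and 42.1%.

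The same relation was computed in the other comparisons, with no test between them. Over the 154 miRNAs detected on all 6 arrays, r with the G+C share was 0.55 for triple stimuli against hypoxia, 0.48 for the array labelled high glucose against the control, -0.13 for palmitate against the control and -0.17 for hypoxia against the control. With the linear trend of 0.10 per 10 percentage points of G+C removed, 5 of the 15 remained past the limit: miR-5126, miR-3096a-5p, miR-3096b-5p, miR-1897-5p and miR-3082-5p. Of these, miR-5126 at 0.590 and miR-1897-5p at 0.586 lay barely past the limit of 0.585. The removal left miR-3096a-5p, with a probe of 52.9% G+C, unchanged at 0.79, and the calls depend on that choice of reference share. A run of at least 4 C, searched on the DNA strand of the probe only and opposite a run of G in the miRNA, was in 6 of the 15 probes and in 9.94% of all 171. In the mature sequences the median share of G was 55.1% for the 8 matched members of the 15 and 27.3% for the other 132 matched miRNAs. Of the 10 matched miRNAs richest in G, 4 were higher, against 8 of all 140 matched miRNAs. The rest of these 10 differed by 0.17 to 0.45, all above the median difference of 0.10. Among them were miR-1224-5p, a mirtron product with 61.9% G, at 0.45 and miR-1982-5p, with 60% G, at 0.20. The hypoxia value of miR-1982-5p was set to the lowest detected signal, so its difference is a lower bound. Both arms were detected for 9 hairpins. In the 8 of them with unequal G+C shares, the arm richer in G+C had the higher difference in 3, and the median of richer minus poorer arm was -0.07. Probes of the arms of these 9 hairpins had G+C shares of 42.1% to 66.7%, and no arm was called. The count thus does not cover probes at 70% or above. The miR-149 hairpin was left out because its 3p arm was not detected in hypoxia.

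In the lists of miRNAs with known roles no member passed the limit, apart from the pair miR-2861 and miR-3960 described above. Of the 171 miRNAs 49.7% lay above the median difference, and the counts below are read against that share. In the low-oxygen list 14 members were detected on both arrays, 0 of them higher and 0 lower, with 2 above the median of all and a list median of -0.06, from miR-210-3p at -0.25 to miR-155-5p, an inflammatory miRNA, at 0.27. Its median was below 0 under every scaling tried except spike-in scaling, where it was 0.0022, and was lowest at -0.26. The kidney epithelium list, of the miR-10 and miR-30 families, had 7 members, 0 called and 0 above the median of all, from miR-30c-5p at -0.13 to miR-30b-5p at 0.01. Its median was -0.08 and was below 0 under every scaling tried, from -0.28 to -0.02.

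The miR-17/92 family, products of clusters driven by MYC and tied to the cell cycle, had 10 members, 0 called and 7 above the median of all. Its members ran from miR-106b-5p at 0.03 to miR-19a-3p at 0.23, with a median of 0.17 that was between -0.04 and 0.23 over the scalings. The let-7 family, which represses growth genes, had 9 members, 0 called, 1 above the median of all and a median of 0.04. The miR-29 family, which represses collagens, had 3 members between -0.09 (miR-29c-3p) and 0.15 (miR-29a-3p). The signs of the let-7 and miR-29 medians, -0.16 to 0.10 and -0.17 to 0.10, also turned with the scaling.

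Of the miRNAs tied to diabetic kidney and high glucose, 11 were detected on both arrays and 0 were called, from miR-30c-5p at -0.13 to miR-29a-3p at 0.15. Of those tied to lipid and fatty acid metabolism, 11 were detected and 0 called, from miR-27b-3p at -0.11 to miR-370-3p at 0.44. The lists of mTOR-targeting miRNAs (8 detected, miR-99a-5p at -0.09 to miR-7a-5p at 0.19), renal fibrosis (5), p53 and apoptosis (5), inflammation (4), miR-15/16 (4) and the miR-23/27/24 clusters (5) had 0 called as well. Within the fibrosis list the lowest was miR-30c-5p and the highest miR-29a-3p, and in the p53 list miR-107-3p at -0.08 and miR-15a-5p at 0.07. In the miR-15/16 list the ends were miR-322-5p at -0.14 and miR-15a-5p, in the clusters miR-27b-3p and miR-23a-3p at -0.01, and in the inflammation list miR-181b-5p and miR-155-5p.

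The other lists with called members were the products annotated in the precursor of ribosomal RNA and the lists by miRBase number. Calls upward were 8.77% of all 171, and the counts of called members below are read against that share. Of 4 detected members of the first, 1 was higher, miR-714, and all 4 lay above the median of all, from miR-5109 at 0.24. The median was 0.32 and above 0 under every scaling tried. All 4 were also lower in hypoxia than in the control, from -0.21 for miR-5109 to -0.80 for miR-714, on the same hypoxia array. The median of hypoxia minus control over all 171 was itself -0.10. Triple stimuli minus control was 0.03 for miR-5109 and -0.13 for miR-714. The log2 levels in triple stimuli and in the control were 5.86 and 6.07 for miR-712-5p, and 9.51 and 9.48 for miR-5105. By miRBase number, which follows the order of registration, 13 of the 15 were numbered 1000 or above, against 29.8% of the 171. Of the 14 detected miRNAs numbered from 1000 to below 3000, 4 were higher and the median was 0.33, from miR-1839-3p at -0.05 to miR-2861. Of the 17 numbered from 3000 to below 5000, 5 were higher and the median was 0.37, from miR-3085-3p at 0.00 to miR-3096a-5p. Of the 20 numbered 5000 and above, 4 were higher and the median was 0.27, from miR-5097 at -0.07 to miR-5126. Of the 120 numbered below 1000, 2 were higher, miR-211-3p and miR-714, and the median was 0.05.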

How the data were processed

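The authors' deposited intensity values are linear spot signals, background-subtracted and outlier-flagged with Agilent Feature Extraction 10.7.3.1, per the file headers. Conditions follow the sample titles. Unflagged spots of a probe were averaged (median 18). Arrays were divided by their 75th percentile of the 281 probes that all 6 arrays detected; values under an array's lowest detected signal were set to it before log2. The brightest of 1 to 4 probes stood for a miRNA. Standard errors cover spots within 1 array. A bound sets the brighter array against the dimmer array's own or lowest detected signal, whichever is higher. Array number limits the precision.

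The authors' deposited table, used as an alternative, holds a linear signal per miRNA, not centred. Its hypoxia and triple stimuli columns equalled the summed signal of their own scanner files divided by 1 factor, within 0.1%, for 70.0% and 73.0% of miRNAs. The origin of that factor was not given in the sources used here. Medians of the columns, 0.00440 for hypoxia, 0.00369 for triple stimuli and 0.00341 to 0.00475 over all 6, equal the column floors.

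Members, lists and the rule for named miRNAs were chosen with earlier results of these data known. The rule takes all called, those with a bound of 1.5-fold, the 5 nearest the limit on each side and in each direction, the 10 brightest, the ends of each list, miR-210-3p and miR-21a-5p, and both arms of a hairpin with a called arm. Outside it, miR-149-5p, miR-1934-3p, miR-1224-5p, miR-1982-5p and miR-125a-5p were chosen after their values were seen. Python 3.11.15, pandas 2.3.3 and, for normexp, limma 3.58.1 in R 4.3.3 were used. The call rule was tested on simulated spots, and the other steps were not tested in that way. RefSeq sequences matched 140 of 171 miRNAs.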

Additional observations from a re-analysis of the deposited data

Results flagged for a closer look

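For 2 of the 15 miRNAs the difference at 1% oxygen was upward while both single stimuli at 20% oxygen gave values at or slightly below 0, none of them past the 1.5-fold limit. miR-5107-5p was higher by 0.69 on the log2 scale in triple stimuli than in hypoxia, and differed by -0.01 on the array labelled high glucose and by -0.13 in palmitate, each against the control. miR-714 was higher by 0.67 in triple stimuli than in hypoxia, and differed by -0.20 and -0.13. Of the 19 alternative settings miR-5107-5p kept its call at 1% oxygen in 11 (lowest value 0.33) and miR-714 in 9 (lowest value 0.25); miR-714 lost it with the odd-numbered spots alone. With 1 array per condition the difference between the oxygen levels was not tested. An exchange of the labels of the high glucose and palmitate arrays leaves both signs as they are.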

How the results depend on the processing

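Of 15 higher miRNAs, 7 were called with the 75th percentile over all probes, 4 with the median of the probes detected on all 6 arrays, 5 with quantile normalisation, 3 with normexp (offset 50, which narrows folds of dim probes by construction), 2 with a 2-fold limit and 8 with the deposited table (5 of them among the 15), which also had 2 lower, miR-185-5p and miR-99b-3p. Removing the trend on G+C share, an alternative chosen after seeing the data, left 5. The other 12 alternatives gave 10 to 17 higher, and all but the deposited table gave 0 lower. The median over all miRNAs moved from 0.10 to -0.032 (75th percentile over all probes), -0.10 (median), -0.066 (quantile; likewise with no filter on dim miRNAs) and -0.11 (deposited table). Detection in hypoxia alone went from 1 miRNA to 3 when 0.8 of spots had to be above background and to 8 with the software's own call. Of the 19 alternatives, miR-5126 kept its call in 19, miR-6538 and miR-2861 in 17, miR-3096a-5p and miR-3960 in 15 and miR-1895 in 7. The lowest value of miR-5126, with the trend on G+C share removed, was 0.590, barely past the limit. All 15 differences stayed above 0. Apart from the stated construction of normexp, the cause was not tested. Dim miRNAs near the floor and the lack of replicate arrays limit every value. No paired analysis was possible because each condition has 1 array.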
